A study of Mus musculus with 25 samples.

Results

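The extracellular matrix genes described here are 36 genes for collagens, basement membrane and elastic fibre proteins, matrix glycoproteins and proteoglycans, matrix proteases with their inhibitors, collagen crosslinking enzymes and 2 markers of matrix-making mesenchymal cells. They were chosen by name, with earlier results of these data known. All 36 were found by their Ensembl identifier among the 18668 genes of the hepatocyte count table and the 51912 genes of the immune cell count table. RNA-seq was done on cells sorted from perfused mouse livers of the mixed strain C57BL/6J 129SV. IL-6 STAT3KO hepatocytes (n = 3) came from Stat3_floxed mice given AAV-TBG-Cre, a virus that drives Cre recombinase from a hepatocyte promoter, for 2 weeks and an IL6 plasmid by hydrodynamic tail vein injection for 1 week. IL-6 hepatocytes (n = 3) came from WT mice given the IL6 plasmid for 1 week with no virus named. DDC STAT3KO hepatocytes (n = 3) came from Stat3_floxed mice with AAV-TBG-Cre for 2 weeks and 1 week of DDC diet, a porphyrinogenic diet that injures bile ducts. DDC hepatocytes (n = 2) came from Stat3_floxed mice with AAV-TBG-GFP for 2 weeks and the same diet for 1 week. GFP hepatocytes (n = 2) came from WT mice given a GFP plasmid for 1 week. The immune libraries, 2 per group and all from WT mice, were labelled macrophage, T cell, neutrophil, Ly6C high monocyte and Ly6C low monocyte after 1 week of DDC diet, and macrophage on normal diet. The DDC and GFP hepatocytes therefore differ in genotype, virus, plasmid and diet, and the IL-6 STAT3KO and IL-6 hepatocytes in genotype and virus, so these cannot be told apart. The labels do not say whether replicates came from separate animals. Every p-value sets a difference between groups against the spread of replicate libraries, and that spread may be only technical.

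In the liver, stellate cells and portal fibroblasts make most fibrillar collagen, while hepatocytes secrete plasma fibronectin and the collagen XVIII precursor of endostatin. Basement membrane proteins and matrix proteases come from several cell types, endothelial, biliary and myeloid cells among them. IL-6 signals through gp130 to the transcription factor STAT3, which drives the acute phase response of hepatocytes, and the protease inhibitor Timp1 and fibronectin are known targets of IL-6 family signalling. The members were grouped by this background, also with earlier results of these data known. The classes were 3 genes taken as hepatocyte-made (Fn1, Ecm1 and Col18a1), 19 taken as mesenchymal, and 14 made by several cell types. A sorted bulk library can hold RNA from cells that adhere to or pass with the sorted ones, and in bulk RNA fewer cells of a type cannot be told apart from less RNA per cell.

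Promoter sequences are shown for Timp1 and Mmp14, which fell with STAT3 deletion, for Mmp13 and Ecm1, which hold a match to the AP-1 motif, and for the head-to-head pair Col4a1 and Col4a2, whose start sites lie 21 bases apart. They come from RefSeq (GRCm38.p6), which matched 23 of the 36 members with 27 promoter windows of 250 bases before to 50 bases after the start. The first 4 lines give the 250 bases before the start, 5′ to 3′ on the gene's own strand, and the last line gives the 78 bases common to the windows of the collagen IV pair, on the plus strand. The 5′ ends of this pair overlap, so each of these 78 bases lies after the start of Col4a1, of Col4a2 or of both. Capitals mark the AP-1 motif, TGACTCA or its reverse complement TGAGTCA.
Timp1, chrX:20869916-20870165, plus strand: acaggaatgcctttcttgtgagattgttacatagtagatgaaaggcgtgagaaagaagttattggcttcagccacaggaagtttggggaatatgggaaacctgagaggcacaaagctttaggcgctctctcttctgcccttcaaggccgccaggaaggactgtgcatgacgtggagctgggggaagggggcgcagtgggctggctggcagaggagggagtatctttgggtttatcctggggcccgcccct
Mmp14, chr14:54431348-54431597, plus strand: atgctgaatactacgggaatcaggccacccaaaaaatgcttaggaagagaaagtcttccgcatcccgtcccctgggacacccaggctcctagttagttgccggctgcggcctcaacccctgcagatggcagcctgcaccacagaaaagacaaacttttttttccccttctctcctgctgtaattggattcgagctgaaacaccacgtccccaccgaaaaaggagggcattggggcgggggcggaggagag
Mmp13, chr9:7272264-7272513, plus strand: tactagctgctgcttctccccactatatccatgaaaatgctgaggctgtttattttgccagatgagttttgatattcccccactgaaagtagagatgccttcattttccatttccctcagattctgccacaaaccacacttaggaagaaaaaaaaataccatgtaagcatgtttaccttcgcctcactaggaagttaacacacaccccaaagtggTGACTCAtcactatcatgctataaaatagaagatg
Ecm1, chr3:95739570-95739819, minus strand: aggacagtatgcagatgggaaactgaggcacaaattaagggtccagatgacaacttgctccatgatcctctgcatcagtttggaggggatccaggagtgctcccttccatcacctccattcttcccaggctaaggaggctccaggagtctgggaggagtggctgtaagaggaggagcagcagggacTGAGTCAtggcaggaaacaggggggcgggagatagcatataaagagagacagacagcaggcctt
Col4a1 and Col4a2, chr8:11312777-11312854, plus strand: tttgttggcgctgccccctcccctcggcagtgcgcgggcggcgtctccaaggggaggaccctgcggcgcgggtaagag
On both strands of the windows, the STAT motif TTCNNNGAA was found in 0 of the 27 member windows and in 8.3% of all 32851 promoters. Fn1, Lamc1, Thbs1, Lum, Dcn, Pdgfrb, Col1a1, Col5a2, Col14a1, Eln, Mmp2, Lox and Loxl2 had no window and were not searched. The AP-1 motif was found in 3 of the 27 member windows (Col6a1, Ecm1 and Mmp13) and in 5.2% of all promoters. These matches describe the letters of short windows only.

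Before the members, the deleted gene was read in every hepatocyte library. Stat3 stood at 116, 96.0 and 116 CPM (counts per 1000000) in IL-6 STAT3KO and 339.7, 351 and 424 CPM in IL-6 hepatocytes, a log2 change of -1.77 ± 0.21 (SE; edgeR quasi-likelihood test, adjusted p = 0.000100). It stood at 62.1, 56.3 and 87.3 CPM in DDC STAT3KO and 150.1 and 112 CPM in DDC hepatocytes, with no overlap, but the change of -0.94 ± 0.22 did not pass (adjusted p = 0.853). In GFP hepatocytes Stat3 was at 109 and 98.9 CPM, and IL-6 STAT3KO against GFP gave 0.07 ± 0.23 (adjusted p = 0.903). The counts cover the whole gene, and the part that Cre removes is not given in the sources used here, so the level does not measure how much of the gene was deleted. Hepatocyte libraries held 13625040 to 18428988 counts and immune libraries 3817794 to 12945663. The 8 hepatocyte markers summed to 27803 to 162659 CPM in hepatocyte libraries and 36.6 to 3838 CPM in immune libraries, and the 11 macrophage markers to 51198 and 59385 CPM in DDC macrophages. Libraries that stood apart touch the results below: DDC STAT3KO replicate 3 and IL-6 replicate 3 were low for markers of other cell types, IL-6 STAT3KO replicate 2 was high for them, and IL-6 replicate 3 also had the lowest hepatocyte marker sum and alone in its group held many EGFP counts. In the libraries labelled T cell, the T cell marker Cd3e was at 0.241 and 1.23 CPM. All 7 T cell markers summed to 290 and 304 CPM there, against 3.29 to 107 CPM in the other immune libraries. The 11 macrophage markers summed to 7882 and 13887 CPM there, against 2530 to 9009 CPM in the neutrophil and monocyte libraries. The libraries labelled T cell are therefore named by their label only.

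Hepatocyte libraries and immune libraries differed in which matrix genes led. Per kilobase of exon, the mean level in IL-6 hepatocytes was highest for Fn1 (918 CPM per kb), followed by Col18a1 (156), Timp1 (26.5) and Mmp14 (25.3 CPM per kb). In GFP hepatocytes Col18a1 led with 175 CPM per kb, with Fn1 at 143 and Ecm1 at 9.34 CPM per kb. In DDC macrophages the leading members were Ecm1 (147), Sparc (84.7) and Dcn (84.0 CPM per kb), and in DDC neutrophils Sparc (146), Thbs1 (49.99) and Ecm1 (36.8 CPM per kb). The 2 tables were normalized separately, so levels set across them are descriptions and were not tested. Fn1, Ecm1 and Col18a1 together made up 83.2% to 95.0% of the members' CPM in IL-6 STAT3KO, 94.9% to 96.0% in IL-6, 75.7% to 92.4% in DDC STAT3KO, 84.0% and 79.6% in DDC and 93.9% and 93.0% in GFP hepatocytes.

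IL-6 raised 8 of the 35 members tested over GFP hepatocytes and lowered 0, among them the fibronectin gene, the protease gene Mmp14, the inhibitor gene Timp1 and 3 of the 5 basement membrane genes (edgeR quasi-likelihood, Benjamini-Hochberg over 14339 genes; Lox, a collagen crosslinking enzyme, was too low to test). Of all genes 25.9% were called in either direction, so the members' share of 22.9% is close to that background. By direction, all member calls were higher, where 13.7% of all genes were called higher and 12.2% lower. Of the mesenchymal genes 0 of 18 tested were called, of those of several cell types 7 of 14 and of the hepatocyte genes 1 of 3. By libraries, 15 of 36 members were higher without overlap and 1 lower (Col14a1), where 31.5% and 29.2% of all genes were. The median log2 change was 0.59 over the members and 0.04 over all genes tested.

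Fn1, the fibronectin that hepatocytes release into plasma, lies at chr1:71585520-71653200 (GRCm38, minus strand). It was at 11761, 9432 and 10999 CPM in IL-6 and 1817 and 1537 CPM in GFP hepatocytes, 2.68 ± 0.43 higher on the log2 scale (adjusted p = 0.00104). Every IL-6 library lay above both GFP libraries. Col18a1 (chr10:77052178-77166548, minus strand), the collagen whose end fragment is endostatin, was at 1324, 1080.1 and 890.2 CPM in IL-6 and 1269 and 1185 CPM in GFP hepatocytes. These ranges overlapped, and the change of -0.16 ± 0.29 did not pass (adjusted p = 0.717). Ecm1 (chr3:95734147-95739569, minus strand), a glycoprotein that restrains latent TGF-beta activation, was at 36.4, 28.7 and 12.3 CPM in IL-6 and 24.5 and 22.6 CPM in GFP hepatocytes, overlapping, with a change of 0.13 ± 0.40 (adjusted p = 0.844).

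Among proteases and inhibitors, Timp1 and Mmp14 rose with IL-6. Timp1 (chrX:20870166-20874735, plus strand), a secreted metalloproteinase inhibitor, was at 34.2, 28.3 and 8.05 CPM in IL-6 and 0.0640 and 0 CPM in GFP hepatocytes, where it had 1 count in all. The ratio of its levels was 685, with a 95% counting interval of 123 to 27100.3 (adjusted p = 8.23e-05). The lowest IL-6 value was that of replicate 3, whose endothelial, macrophage and stellate markers were also low, and the part of other cells in it was not tested. Mmp14 (chr14:54431612-54445364, plus strand), a membrane-bound collagenase, was at 152, 155 and 144 CPM in IL-6 and 17.7 and 15.4 CPM in GFP hepatocytes, 3.18 ± 0.56 higher on the log2 scale (adjusted p = 0.00181). Its IL-6 libraries were close together and far above GFP.

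Of the 5 basement membrane genes Col4a1, Col4a2 and Lamc1 were called higher, and Lamb1 and Col18a1 were not. Col4a1 (chr8:11198423-11312826, minus strand), which encodes a chain of collagen IV, was at 76.3, 86.4 and 148 CPM in IL-6 and 15.7 and 16.9 CPM in GFP hepatocytes (log2 change 2.67 ± 0.47, adjusted p = 0.00166). The gene of its partner chain, Col4a2 (chr8:11312805-11449287, plus strand), was at 32.2, 24.1 and 31.9 CPM in IL-6 against 10.9 and 9.98 CPM in GFP hepatocytes (1.49 ± 0.39, adjusted p = 0.0149). Lamc1 (chr1:153218922-153332786, minus strand), a laminin gamma chain, was at 34.97, 37.5 and 37.4 CPM in IL-6 against 13.8 and 11.5 CPM in GFP hepatocytes (1.54 ± 0.31, adjusted p = 0.00383). In these 3 genes the IL-6 libraries lay above both GFP libraries. Lamb1, a laminin beta chain, averaged 3.51 CPM in IL-6 and 2.62 CPM in GFP hepatocytes, also without overlap, and did not pass (0.42 ± 0.60, adjusted p = 0.649).

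The remaining calls were of low genes. Thbs1, the matricellular protein thrombospondin 1, averaged 1.76 CPM in IL-6 and 0.172 CPM in GFP hepatocytes (3.33 ± 1.05, adjusted p = 0.0347). Vcan, the proteoglycan versican, was at 0.0789, 0.370 and 5.68 CPM in IL-6 and 0.0640 and 0 CPM in GFP hepatocytes, a ratio of 65.8 with a counting interval of 11.5 to 2625 (adjusted p = 0.0432). The versican call came from IL-6 replicate 3 and was lost without it. Thbs1 was lost without any 1 of the 3 IL-6 libraries, and Timp3, an inhibitor that binds to matrix, was gained without replicate 3. Without GFP replicate 1 or GFP replicate 2 the count was 5, with Timp1, Fn1, Col4a1 and Mmp14 called in every leave-one-out fit.

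**Figure D1:**
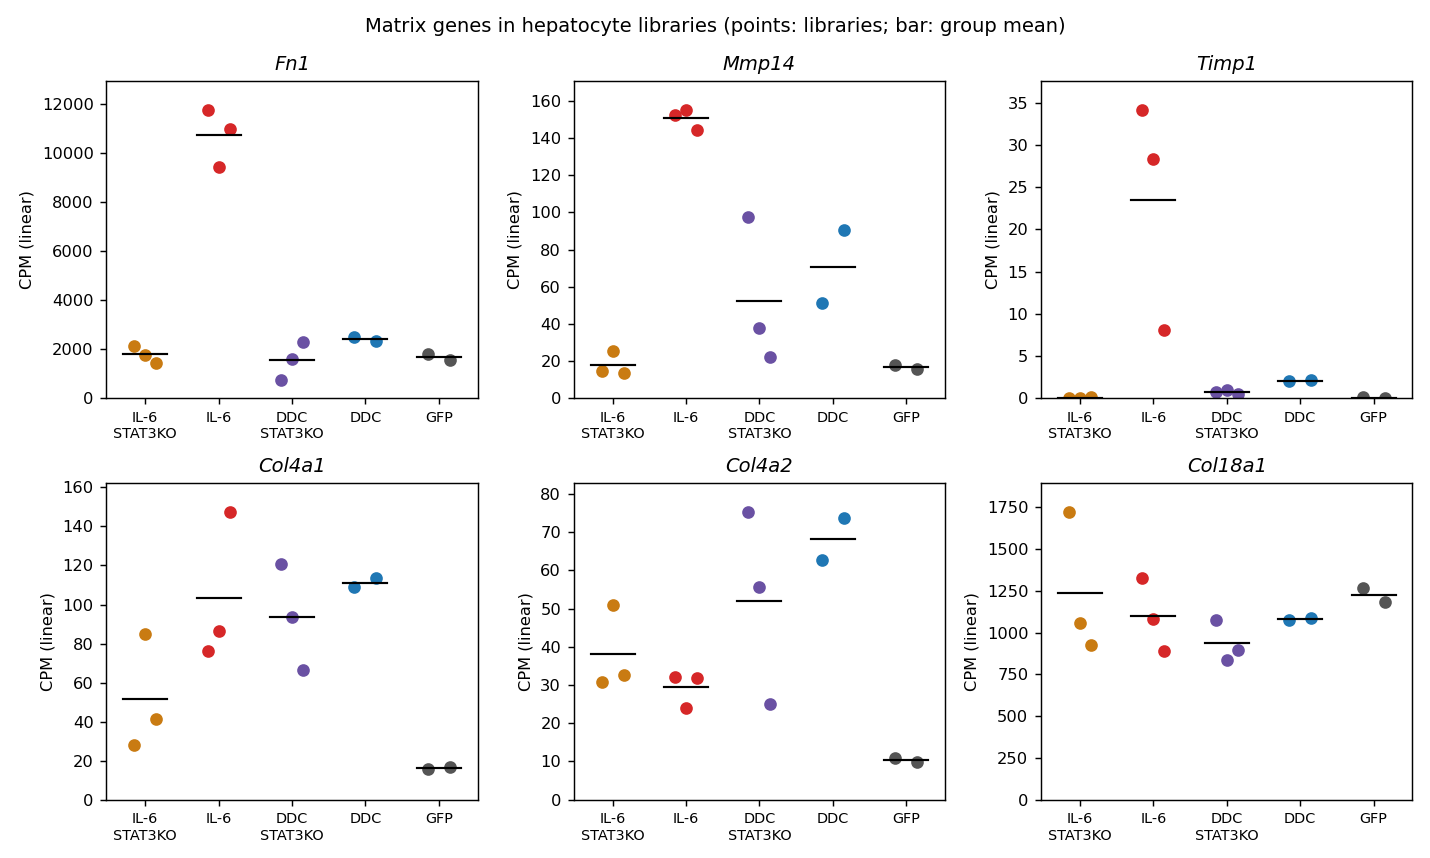
CPM (linear axis) of 6 matrix genes in each hepatocyte library, with a bar at the group mean. Fn1, Mmp14 and Timp1 were high in the 3 IL-6 libraries (Fn1 9432 to 11761 CPM) and near the GFP level in IL-6 STAT3KO (1427 to 2141 CPM), Col4a1 and Col4a2 were also high in DDC, and Col18a1 overlapped between IL-6 and GFP.

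Fn1, Mmp14, Timp1 and Vcan fell and Postn rose when STAT3 was deleted in mice given IL-6, 5 of 35 members, where 26.4% of all genes were called (13% higher, 13.4% lower). The members' share was thus below that of all genes. Fn1 was at 2141, 1763 and 1427 CPM in IL-6 STAT3KO hepatocytes, against the 9432 to 11761 CPM of IL-6 hepatocytes, a log2 change of -2.59 ± 0.37 (adjusted p = 0.000353). Mmp14 was at 14.7, 25.5 and 13.5 CPM, against 152, 155 and 144 CPM with IL-6 alone (-3.07 ± 0.47, adjusted p = 0.000628). Timp1 had 3 counts over the IL-6 STAT3KO libraries, at 0.0619, 0 and 0.117 CPM, a ratio of 0.00267 to the IL-6 libraries with a counting interval of 0.00055 to 0.00783 (adjusted p = 1.85e-05). No library of one group overlapped the other in these 3 genes, and all 3 were called with any 1 library of the comparison left out. Vcan fell by 3.99 on the log2 scale (SE 1.32, adjusted p = 0.0419), with overlapping libraries, and its call was lost without IL-6 STAT3KO replicate 1 or 3 and without IL-6 replicate 3, where the change was -0.89.

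Postn (chr3:54361109-54391037, plus strand), the matricellular protein periostin of activated fibroblasts, was at 2.66, 11.3 and 3.97 CPM in IL-6 STAT3KO and 2.13, 1.97 and 1.19 CPM in IL-6 hepatocytes (1.76 ± 0.59, adjusted p = 0.0459). Its high value was that of replicate 2, without which the change was 0.91 and the call was lost. It was also lost without IL-6 STAT3KO replicate 3 and without any 1 of the IL-6 libraries. The same library was the highest of its group for 18 of the 19 mesenchymal members, for 10 of 14 stellate cell markers and for 10 of 11 macrophage markers. Of the other marker lists, 3 of 3 tested bile duct (of 7 listed), 3 of 5 tested neutrophil and 2 of 7 monocyte markers were called lower in IL-6 STAT3KO. Of 8 hepatocyte markers 3 were called higher and 1 lower, and the 1 tested T cell marker, Cd4, was called higher. The part of these marker lists in the results of this comparison, and that of replicate 2, was not tested. The median change of the 18 tested mesenchymal genes was 0.55 with that library and -0.26 without it, against 0 over all genes. Leaving it out gave 6 calls, all lower, with Col4a1 and Thbs1 added. Without IL-6 STAT3KO replicate 3, 3 calls were made.

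The other genes of this comparison did not pass. Col4a1 was at 28.2, 84.7 and 41.4 CPM in IL-6 STAT3KO and 76.3, 86.4 and 148 CPM in IL-6 hepatocytes (-1.01 ± 0.37, adjusted p = 0.0665). Timp3 averaged 7.33 CPM in IL-6 STAT3KO and 23.8 CPM in IL-6 hepatocytes (-1.70 ± 0.69, adjusted p = 0.0893). Both overlapped between the groups. Col3a1 was at 9.29, 42.1 and 16.3 CPM in IL-6 STAT3KO and 7.26, 5.73 and 8.73 CPM in IL-6 hepatocytes (1.64 ± 0.72, adjusted p = 0.115), without overlap and again highest in replicate 2. Col18a1 was at 1724, 1055 and 926 CPM in IL-6 STAT3KO hepatocytes, within and above the IL-6 range (0.17 ± 0.26, adjusted p = 0.673), and Ecm1 at 14.5, 15.7 and 19.7 CPM (-0.63 ± 0.35, adjusted p = 0.221). Sparc was at 22.7, 65.8 and 37.6 CPM and Pdgfrb at 2.04, 8.39 and 5.72 CPM, both overlapping the IL-6 libraries.

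Against GFP hepatocytes, IL-6 STAT3KO hepatocytes differed in 1 member, Col4a2, where 3.12% of all genes were called (2.26% higher, 0.865% lower). Col4a2 was at 30.9, 50.8 and 32.7 CPM in IL-6 STAT3KO and 10.9 and 9.98 CPM in GFP hepatocytes (1.86 ± 0.39, adjusted p = 0.0243). The libraries did not overlap, but the call was lost without IL-6 STAT3KO replicate 2 and without either GFP library. Fn1 (0.08 ± 0.39, adjusted p = 0.938), Mmp14 (0.11 ± 0.50, adjusted p = 0.936) and Timp1 (1 to 3 counts in each group) did not pass in this comparison. The 2 GFP libraries serve in all 3 comparisons against GFP, so those comparisons are not independent.

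The collagen IV pair, whose genes start head to head, had unequal levels with IL-6. Per kilobase of exon, the ratio of Col4a1 to Col4a2 was 0.809, 1.48 and 1.12 in IL-6 STAT3KO hepatocytes and 2.10, 3.18 and 4.11 in IL-6 hepatocytes. In DDC STAT3KO it was 1.42, 1.49 and 2.35, in DDC 1.54 and 1.37, and in GFP hepatocytes 1.28 and 1.498. The 3 IL-6 libraries had the highest ratios but for DDC STAT3KO replicate 3, which lay above the lowest of them. Between IL-6 STAT3KO and IL-6 the log2 ratio differed by -1.45, with an exact two-sided permutation p of 0.1, the smallest that 3 against 3 libraries allow. This ratio was looked at after the values were seen.

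DDC diet was accompanied by higher levels of nearly the whole matrix list in hepatocyte libraries. Of 36 members 35 had a higher mean in DDC than in GFP hepatocytes, and 31 did so without overlap, where 36.5% of all genes did. Col18a1 was the 1 member lower without overlap, where 34.8% of all genes were. Of 35 tested, 10 were called higher and 0 lower, where 18.6% of all genes were called, 10.4% higher and 8.29% lower. The median log2 change was 2.09 over the members (2.07 with Acta2, which GFP libraries lacked, at its bound) and 0.02 over all genes. By class, 7 of 14 genes of several cell types, 3 of 18 mesenchymal genes and 0 of 3 hepatocyte genes were called.

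By adjusted p the first 3 of the 10 DDC calls were genes for basement membrane. Lamc1 was at 57.9 and 81.6 CPM in DDC and 13.8 and 11.5 CPM in GFP hepatocytes (2.46 ± 0.34, adjusted p = 0.00131). Col4a2 was at 62.7 and 73.6 CPM in DDC hepatocytes (2.70 ± 0.43, adjusted p = 0.00244), and Col4a1 at 109 and 113 CPM (2.77 ± 0.49, adjusted p = 0.00411). Lamb1 averaged 9.72 CPM in DDC and 2.62 CPM in GFP hepatocytes without overlap and did not pass (1.89 ± 0.66, adjusted p = 0.0629). Lamc1, Col4a1 and Col4a2 were called without any 1 of the 4 libraries, and the other 7 calls were each lost in at least 1 such fit.

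Among proteoglycans and matricellular genes, Lum (chr10:97565128-97572703, plus strand), the collagen-binding proteoglycan lumican, was at 12.6 and 13.9 CPM in DDC and 1.86 and 0.894 CPM in GFP hepatocytes (3.26 ± 0.84, adjusted p = 0.0212). Postn was at 9.01 and 14.4 CPM in DDC and 1.66 and 2.75 CPM in GFP hepatocytes (2.41 ± 0.73, adjusted p = 0.0382). Thbs1 averaged 2.43 CPM in DDC and 0.172 CPM in GFP hepatocytes (3.79 ± 1.08, adjusted p = 0.0317). Each of these had DDC libraries above both GFP libraries. Sparc, a collagen-binding glycoprotein of stellate and endothelial cells, was at 61.1 and 65.2 CPM in DDC and 31.9 and 36.9 CPM in GFP hepatocytes and did not pass (0.88 ± 0.54, adjusted p = 0.266).

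Of the proteases, Mmp14 was at 50.96 and 90.6 CPM in DDC and 17.7 and 15.4 CPM in GFP hepatocytes (2.09 ± 0.56, adjusted p = 0.0248). Mmp13 (chr9:7272514-7283331, plus strand), an interstitial collagenase, was at 2.81 and 0.936 CPM in DDC and 0.0640 and 0 CPM in GFP hepatocytes, a ratio of 54.0 with a counting interval of 9.40 to 2163 (adjusted p = 0.0351). Timp1 was at 2.02 and 2.09 CPM in DDC hepatocytes against 1 count over both GFP libraries, a ratio of 62.1 with an interval of 10.8 to 2479.9 (adjusted p = 0.00543). In DDC hepatocytes Timp1 was thus detected but lay below the lowest IL-6 library (8.05 CPM). Counting intervals cover counting error only.

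Most fibrillar collagens and mesenchymal markers had higher values in DDC and missed the threshold. Col1a1 was at 12.7 and 18.8 CPM in DDC and 0.768 and 1.86 CPM in GFP hepatocytes (3.58 ± 1.24, adjusted p = 0.0625). Col3a1 was at 35.9 and 69.5 CPM in DDC and 7.68 and 9.63 CPM in GFP hepatocytes (2.61 ± 0.89, adjusted p = 0.0604). Neither gene's libraries overlapped. Pdgfrb, the platelet-derived growth factor receptor of stellate cells and pericytes, passed, at 11.4 and 10.8 CPM in DDC and 2.37 and 2.13 CPM in GFP hepatocytes (2.30 ± 0.63, adjusted p = 0.0271). Acta2, the smooth muscle actin of activated stellate cells, was at 0.583 and 0.223 CPM in DDC and 0 in both GFP libraries. With a floor of 3 counts over the GFP libraries that is at least 3.89-fold higher, and it did not pass (adjusted p = 0.141).

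The remaining members missed the threshold as well. Among the network and associated collagens, Col6a1 averaged 5.74 CPM in DDC and 1.03 CPM in GFP hepatocytes (2.47 ± 0.90, adjusted p = 0.0735), and Col6a3 6.22 CPM in DDC and 1.14 CPM in GFP hepatocytes (2.43 ± 0.85, adjusted p = 0.0637). Col1a2, Col5a1, Col6a2 and Col14a1 had log2 changes of 0.99 to 2.45 without overlap. Col5a2 overlapped (0.39 ± 0.87). Dcn, the proteoglycan decorin, was at 84.5 and 110.5 CPM in DDC and 29.3 and 26.9 CPM in GFP hepatocytes (1.80 ± 0.60, adjusted p = 0.0556), and Bgn, biglycan, averaged 60.4 CPM in DDC and 18.3 CPM in GFP hepatocytes (1.72 ± 0.67, adjusted p = 0.0901). Of the elastic fibre genes, Fbn1, fibrillin, averaged 5.63 CPM in DDC and 1.34 CPM in GFP hepatocytes without overlap. Eln, elastin, averaged 1.35 CPM in DDC and 0.645 CPM in GFP hepatocytes with overlap. Loxl2, a crosslinking oxidase, averaged 4.30 CPM in DDC and 0.811 CPM in GFP hepatocytes (2.40 ± 0.90, adjusted p = 0.0806), while Lox had 10 counts in DDC and 3 in GFP hepatocytes. Timp2, Timp3 and Mmp2 had log2 changes of 0.60 to 1.15, and Tnc, tenascin C, one of 1.97 with 33 counts in DDC and 6 in GFP hepatocytes.

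Of the hepatocyte class, 0 of 3 genes passed under the diet. Fn1 was at 2476 and 2320.3 CPM in DDC and 1817 and 1537 CPM in GFP hepatocytes (0.52 ± 0.42, adjusted p = 0.413). Col18a1, at 1078 and 1085 CPM in DDC and 1269 and 1185 CPM in GFP hepatocytes (-0.18 ± 0.31, adjusted p = 0.716), was the one member with a lower mean in DDC. Ecm1 was at 57.1 and 59.4 CPM in DDC and 24.5 and 22.6 CPM in GFP hepatocytes, just short of the threshold (1.31 ± 0.43, adjusted p = 0.0546). The count of 10 calls moved with the fit. It was 4 or 5 without any 1 of the 4 libraries compared, 22 with DESeq2, 25 with only DDC and GFP in the fit, and 23 when IL-6 replicate 3 and DDC STAT3KO replicate 3 were left out.

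**Figure D2:**
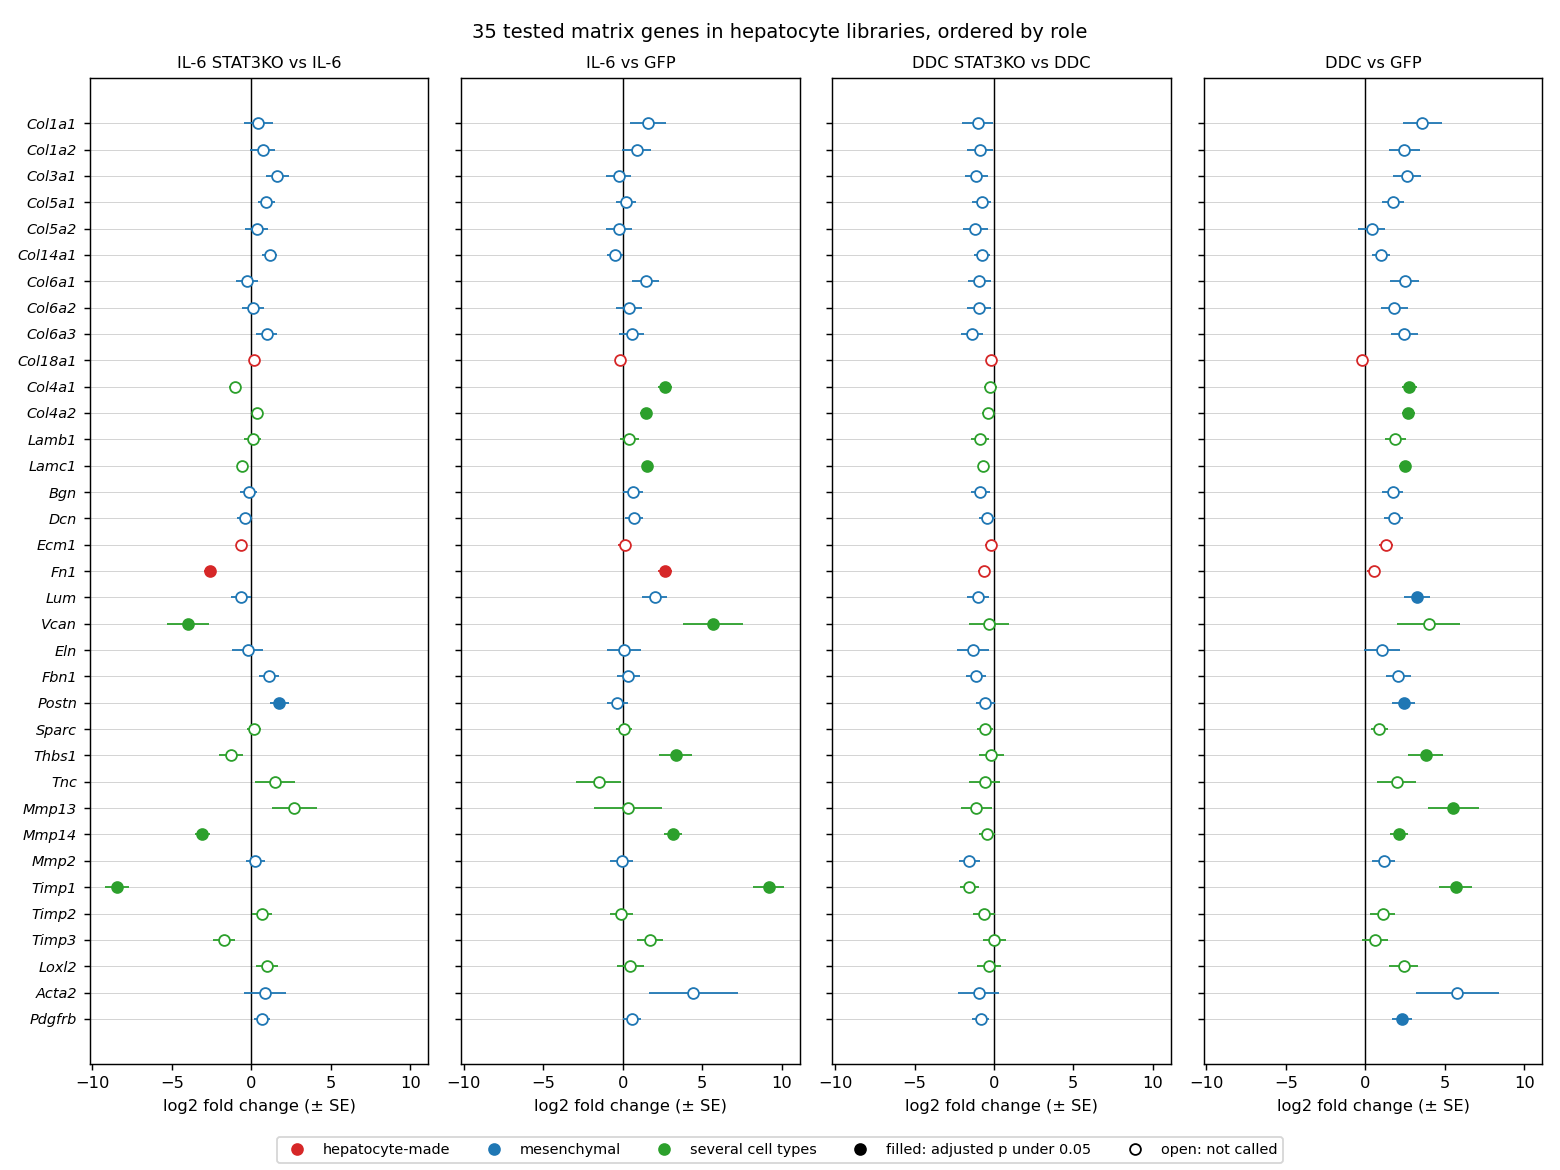
Log2 fold changes (± SE, horizontal axis) of the 35 tested matrix genes in 4 hepatocyte comparisons, by role from top to bottom; colour gives the class and filled points passed an adjusted p of 0.05. The DDC and GFP panel lies to the right of 0 for all but Col18a1, while in the IL-6 and GFP panel no mesenchymal gene was called.

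With DDC diet, the STAT3KO libraries gave 0 calls among the members and 0 among all 14339 genes with edgeR, that is 0% called, and at an unadjusted p under 0.05 there were 3 members and 803 genes. DESeq2 called 19 genes and 0 members. The median change of the members was -0.77 and that of the mesenchymal genes -0.95, against 0.01 over all genes, and 11 members were lower with no overlap and 0 higher, where 9% and 9.35% of all genes were. Fn1 was at 740.0, 1613 and 2288 CPM in DDC STAT3KO hepatocytes, all below the DDC libraries (-0.63 ± 0.38, adjusted p = 0.854). Mmp14 was at 97.4, 37.9 and 21.9 CPM and overlapped the DDC libraries (-0.43 ± 0.48, adjusted p = 0.893). Timp1 was at 0.678, 0.908 and 0.449 CPM, below the DDC libraries (-1.56 ± 0.59, adjusted p = 0.853).

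DDC STAT3KO replicate 3 was the lowest of its group for 18 of 19 mesenchymal members, with Col1a1 at 0.374 CPM against 11.8 and 10.9 CPM in replicates 1 and 2. Col3a1 showed the same, at 3.14 CPM against 32.3 and 37.7 CPM. That library was also the lowest for 12 of 14 stellate cell markers and 11 of 11 macrophage markers, whose sum was 69.8 CPM against 377.6 and 509 CPM. Their part in the result was not tested. Without the library the members' median was -0.43 and the mesenchymal median -0.50, and without DDC STAT3KO replicate 2 they were -1.32 and -1.43, with 0 calls in both fits.

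The effect of STAT3 deletion was compared between the IL-6 and the DDC setting with an interaction term, a test added after the data were seen. It called 8.28% of all genes (4.2% higher, 4.08% lower) and 3 of the 35 members tested, all 3 lower. Taken in either direction, the members' share is close to that background. They were Timp1, Mmp14 and Fn1, each lowered more with IL-6 than with DDC. For Timp1 the effects were -8.43 and -1.56 (difference -6.88 ± 1.02, adjusted p = 0.00202), although 3 counts lie behind the first. For Mmp14 they were -3.07 and -0.43 (difference -2.64 ± 0.68, adjusted p = 0.0341), and for Fn1 -2.59 and -0.63 (difference -1.96 ± 0.53, adjusted p = 0.0415). Without IL-6 replicate 3 and DDC STAT3KO replicate 3 the Fn1 difference was -1.54 and did not pass (adjusted p = 0.0506).

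The mesenchymal genes were summed in each library and set beside markers of stellate cells. The 19 genes summed to 77.9, 279.9 and 156 CPM in IL-6 STAT3KO, 165, 150.3 and 89.5 CPM in IL-6, 201, 356 and 77.5 CPM in DDC STAT3KO, 305 and 419 CPM in DDC, and 99.9 and 99.3 CPM in GFP hepatocytes. The sum of 14 stellate cell markers, none of them a member, was 65.4, 213 and 149 CPM in IL-6 STAT3KO, 144, 155 and 74.0 CPM in IL-6, 208, 321 and 119.8 CPM in DDC STAT3KO, 235 and 367 CPM in DDC, and 112 and 103 CPM in GFP hepatocytes. The ratio of the sums was 0.646 to 1.31 over the 13 hepatocyte libraries. In the 12 immune libraries, where the mesenchymal sum spanned 53.9 to 1377 CPM, the ratio was 0.723 to 1.64. The marker list was cut from 16 to 14 after the values were seen, by leaving out Cxcl12 and Ifitm1, which are high in other cells. With all 16 the ratio was 0.239 to 0.845 over the hepatocyte libraries and 0.207 to 1.40 over the immune libraries, and the marker sums overlapped between DDC (386 and 496 CPM) and GFP hepatocytes (417 and 331 CPM). Reln supplied 41.7% of the 14-marker sum in IL-6 STAT3KO, 19.2% in IL-6, 34.2% in DDC STAT3KO, 38.3% in DDC and 32.4% in GFP hepatocytes. Its mean fell from 34.7 CPM in GFP to 23.9 CPM in IL-6 hepatocytes, so the sums depend on this gene.

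Markers of other cells were read beside the matrix genes. In DDC against GFP hepatocytes the mean mesenchymal sum was 3.64 times as high, the 14-marker stellate sum 2.81 times (1.18 times with all 16) and the macrophage sum 10.9 times, and the calls were 11 of 11 macrophage markers, 2 of 7 monocyte markers, 0 of 5 tested neutrophil markers, 4 of 15 tested stellate markers, 3 of 3 tested bile duct markers and 0 of 12 endothelial markers. In IL-6 against GFP hepatocytes the same ratios were 1.36, 1.16 (0.830 with all 16 markers, which turns the direction) and 4.04, with 4 of 11 macrophage, 4 of 7 monocyte, 4 of 5 neutrophil, 2 of 15 stellate, 2 of 3 bile duct and 0 of 12 endothelial markers called. Between IL-6 STAT3KO and IL-6 hepatocytes, beside the marker calls given with Postn, 0 of 11 macrophage, 0 of 15 stellate and 0 of 12 endothelial markers were called. Of 7 bile duct markers listed, only 4 were among the genes of the hepatocyte count table and 3 were tested. The 3 tested were Epcam (mean 1.19 CPM in DDC and 0 in GFP hepatocytes), Cldn7 (0.715 CPM in DDC) and Spp1. Spp1 also belongs to the wider matrix list below. What share of the change in the members came with the cells of these marker lists was not tested.

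**Figure D3:**
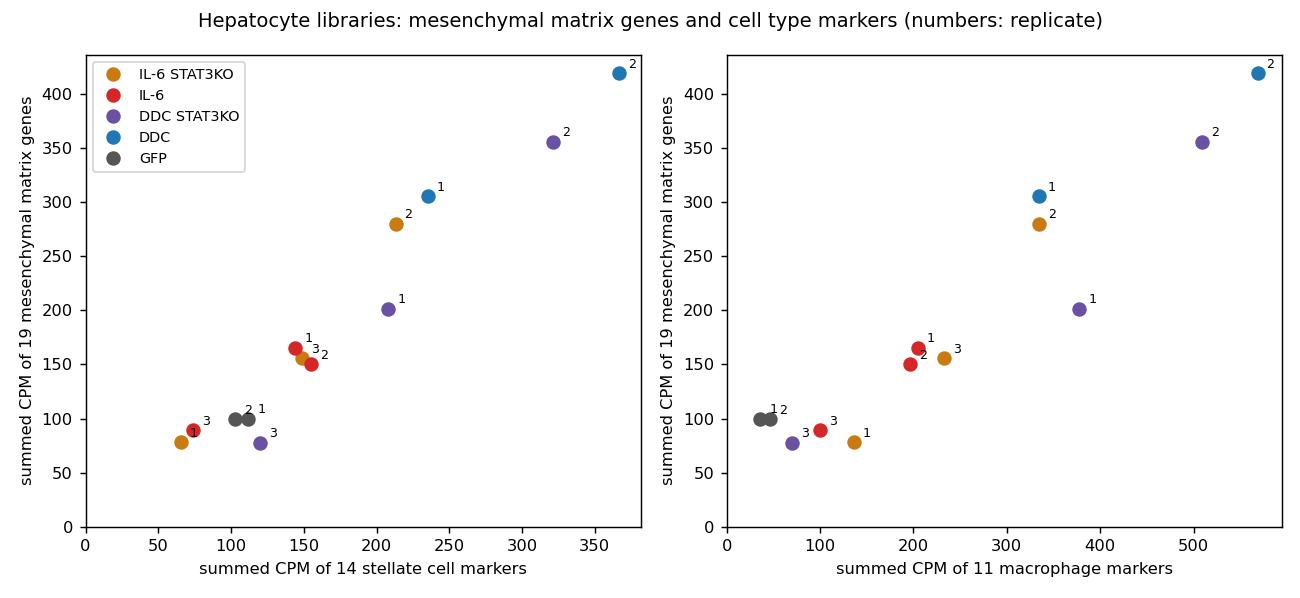
Summed CPM of the 19 mesenchymal matrix genes (vertical axis) in each hepatocyte library against the summed CPM of 14 stellate cell markers (left) and 11 macrophage markers (right); numbers give the replicate. DDC replicate 2 was highest on every axis (419, 367 and 569 CPM), and the libraries of a group lie apart, as in IL-6 STAT3KO (77.9, 279.9 and 156 CPM).

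Set against the same stellate markers, the members spread over a wide range. As a percentage of the 14-marker sum, the level in hepatocyte libraries was compared with the libraries labelled T cell, which had the highest mesenchymal sums (1377 and 1303 CPM). Over 17 mesenchymal genes (Eln, the elastin gene, and Lox were at 0 in the libraries labelled T cell) the ratio had a median of 1.33 in IL-6, 1.99 in DDC and 1.22 in GFP hepatocytes, and was at most 3.67. For Fn1 the ratio was 1054 in IL-6, 91.5 in DDC and 169 in GFP hepatocytes, and for Col18a1 675, 271 and 822. Mmp14 (52.4, 9.09 and 6.05), Lamc1 (15.8, 11.2 and 5.64) and Col4a1 (11.5, 4.31 and 1.70) lay above that highest mesenchymal value in at least 1 group. So did Col4a2 (5.60, 4.85 and 2.02), Lamb1 (3.97, 4.26 and 3.11), Loxl2 (3.51, 4.84 and 2.63) and Timp1, given below. The 14 genes of several cell types spanned 0.0443 to 52.4 in IL-6, 0.195 to 11.2 in DDC and 0.0225 to 6.05 in GFP hepatocytes, with Sparc at 0.548, 0.412 and 0.607, so they overlapped the mesenchymal genes. Timp1 had 37.0 in IL-6, 1.4999 in DDC and 0.0601 in GFP hepatocytes. Ecm1, placed among hepatocyte-made genes by its background, had 1.501, 1.51 and 1.64, within the range of the mesenchymal genes, and its level was higher in all 12 immune libraries (66.4 to 501 CPM) than in 12 of the 13 hepatocyte libraries. With all 16 markers the mesenchymal median was 0.54 in IL-6, 1.501 in DDC and 0.40 in GFP hepatocytes, and Fn1 had 437, 67.6 and 54.8. The ratios rest on the libraries labelled T cell, where the stellate marker Rgs5 made 42.7% of the sum.

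In the immune libraries, Fn1 set the monocytes apart. It was at 1291 and 733 CPM in Ly6C high and 185 and 168 CPM in Ly6C low monocytes. In the other DDC libraries it was at 36.1 and 14.8 CPM in macrophages, 123 and 91.0 CPM in those labelled T cell and 106 and 22.2 CPM in neutrophils, and in macrophages on normal diet at 18.7 and 12.3 CPM. The Ly6C high libraries lay above all others. Between Ly6C high and Ly6C low monocytes edgeR called 0 of 27759 genes (0%), with 461 genes and 7 members at an unadjusted p under 0.05, and DESeq2 called 28 genes and 1 member, Postn. The Fn1 change was 2.52 ± 0.67 (unadjusted p = 0.00149, adjusted p = 1).

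Thbs1 followed another order. It was at 6.41 and 24.6 CPM in DDC macrophages, 57.6 and 19.4 CPM in the libraries labelled T cell, 232 and 375 CPM in neutrophils, 377 and 265 CPM in Ly6C high and 203 and 114 CPM in Ly6C low monocytes, and 3.47 and 0.304 CPM in macrophages on normal diet. Neutrophils and both monocyte groups lay above the rest, and neutrophils and Ly6C high monocytes overlapped. Acta2 was at 84.8 and 67.3 CPM in neutrophils and between 0 and 14.7 CPM in the other immune libraries. That is not the order of the other mesenchymal markers, since Pdgfrb was at 0.130 and 5.44 CPM in the same neutrophil libraries, and 1.43 to 17.9 CPM elsewhere.

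Macrophages of DDC-fed mice differed from the other DDC immune cells in 2 members, where 0.695% of all genes were called (0.566% higher, 0.13% lower). Mmp13 was higher, at 27.0 and 87.6 CPM in DDC macrophages and 1.64 to 23.0 CPM in the other DDC libraries (3.23 ± 0.66, adjusted p = 0.0252). Macrophages on normal diet, outside this comparison, had Mmp13 at 6.14 and 28.0 CPM, which overlapped the DDC macrophages. Fn1 was lower (-2.88 ± 0.62, adjusted p = 0.0362), though its macrophage values overlapped those of neutrophils. Both calls were lost without DDC macrophage replicate 2, where Dcn, Thbs1 and Ecm1 passed instead. With any 1 library of the other cell types left out 4 to 8 members passed, 8 of them without neutrophil replicate 1. By libraries 2 members were higher without overlap and 0 lower, where 4.53% and 1.3% of all genes were. Ecm1 was at 501 and 239 CPM in DDC macrophages and 66.4 to 223 CPM in the other DDC libraries, without overlap, and did not pass (1.61 ± 0.42, adjusted p = 0.119). Macrophage identity was plain, with 9 of 11 macrophage markers called higher in the same comparison.

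Between macrophages on DDC and on normal diet 0 members were called, against 0.0252% of all genes (7, all higher), and 6 members and 2935 of 27759 genes had an unadjusted p under 0.05. Lum came closest, at 68.4 and 14.6 CPM on DDC and 1.25 and 0.685 CPM on normal diet (5.41 ± 1.00, adjusted p = 0.0803). Dcn was at 599 and 381 CPM on DDC and 86.1 and 127 CPM on normal diet (2.20 ± 0.61, adjusted p = 0.325). Neither gene overlapped between the diets. DESeq2 called Lum, Tnc and Timp3. The median change over all genes was -0.62 with TMM scaling and -1.12 with median-of-ratios scaling, so these changes are read against that shift, and the members' median was -0.33. The mean stellate sum was 1.82 times as high on DDC as on normal diet, and the endothelial sum 0.312 times. Their part in Lum and Dcn was not tested.

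**Figure D4:**
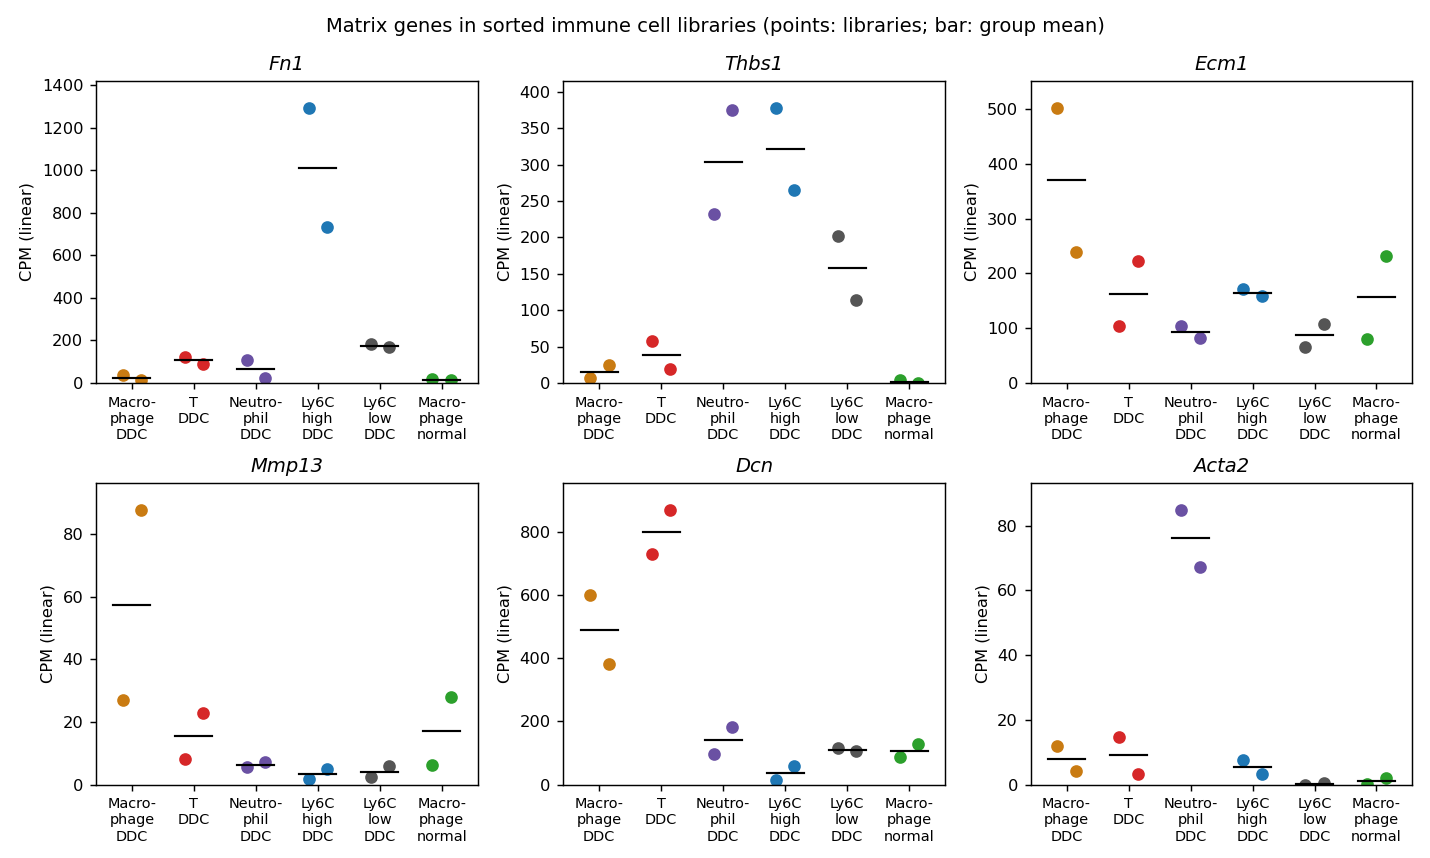
CPM (linear axis) of 6 matrix genes in the 12 immune libraries, with a bar at the group mean. Fn1 was highest in Ly6C high monocytes (1291 and 733 CPM), Dcn in the libraries labelled T cell (731 and 868 CPM) and Acta2 in neutrophils (84.8 and 67.3 CPM). Ecm1 and Mmp13 had their highest means in DDC macrophages, where Mmp13 overlapped macrophages on normal diet.

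Fibrillar collagens had their highest means among immune groups in the libraries labelled T cell. Col1a1 was at 17.3 and 4.10 CPM in DDC macrophages, 33.4 and 18.1 CPM in those labelled T cell and 14.5 and 11.9 CPM in macrophages on normal diet, and at most 6.66 CPM in the others. Col3a1 was at 53.3 and 20.2 CPM in DDC macrophages, 98.3 and 54.2 CPM in those labelled T cell, 6.00 and 45.2 CPM in neutrophils and at most 19.2 CPM in the others. Sparc ranged from 78.7 CPM in a Ly6C high library to 795 CPM in one labelled T cell, with 471 and 509 CPM in macrophages on normal diet. Col18a1 was between 0.286 and 18.3 CPM and Timp1 between 0 and 7.92 CPM in all 12 immune libraries.

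A wider list of 85 matrix, crosslinking and adhesion genes that are not members was read beside them. With IL-6 against GFP, 27 of 74 tested were higher and 3 lower, where 13.7% and 12.2% of all genes were, while between IL-6 STAT3KO and IL-6 hepatocytes 3 were higher and 25 lower, where 13% and 13.4% were. Spp1, the matricellular protein osteopontin that biliary cells and macrophages also make, averaged 24.5 CPM in IL-6 STAT3KO, 6524 CPM in IL-6 and 2.55 CPM in GFP hepatocytes (-8.05 ± 1.49, adjusted p = 0.00203, for the STAT3 deletion, as in the next genes). Vtn, the hepatocyte plasma protein vitronectin, averaged 1877 CPM in IL-6 STAT3KO, 6710 CPM in IL-6 and 2426 CPM in GFP hepatocytes (-1.84 ± 0.21, adjusted p = 7.90e-05). The laminin alpha gene Lama3 moved the other way, at 30.2 CPM in IL-6 STAT3KO, 2.85 CPM in IL-6 and 14.8 CPM in GFP hepatocytes (3.39 ± 0.65, adjusted p = 0.00248).

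In DDC against GFP hepatocytes the wider list had 27 higher and 3 lower (Lama3, Sdc2 and Sdc4), where 10.4% and 8.29% of all genes were. Nid1, the basement membrane linker nidogen, averaged 378 CPM in DDC and 8.01 CPM in GFP hepatocytes (5.56 ± 0.99, adjusted p = 0.00427), and the collagen receptor Ddr1 29.3 CPM in DDC and 0.723 CPM in GFP hepatocytes (5.32 ± 0.95, adjusted p = 0.00427). Mmp12, the macrophage elastase, averaged 29.6 CPM in DDC and 0.440 CPM in GFP hepatocytes (6.07 ± 1.58, adjusted p = 0.0221). In macrophages Mmp12 averaged 476 CPM on DDC and 30.3 CPM on normal diet (3.98 ± 0.62, adjusted p = 0.0322), the one call of the wider list there. IL-6 STAT3KO against GFP hepatocytes gave 1 call, Col15a1, and DDC STAT3KO against DDC gave 0.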

How the data were processed

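The authors deposited 2 tables of raw gene counts, for 13 hepatocyte and 12 immune libraries. Per the submitters' processing notes, STAR, HTSeq, DESeq2 and mm10 were used, and no versions are named. Per the labels' protocols, cells were sorted after perfusion and libraries were made with a TruSeq kit from 1 ug of total RNA; the counting strand is not stated. Reads shared with overlapping exons (Fn1 292 bases with Apol7d, Timp3 1733 with Syn3, Fbn1 2442 with Gm9913, Eln 267 with Gm30003, Thbs1 208 with Gm29233, Col3a1 141 with Gm47302) can therefore not be told apart. Identifiers were matched to GENCODE M21 symbols.

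Each table was fitted whole in R 4.3.3 with edgeR 4.0.16: TMM scaling, filterByExpr by group, 1 term per group, quasi-likelihood F tests, Benjamini-Hochberg over all genes, called at an adjusted p under 0.05. The filter kept 14339 hepatocyte and 27759 immune genes, with 8 and 6 residual degrees of freedom. Macrophages were set against the mean of the 4 other DDC groups. CPM values use TMM-scaled library sizes, and an SE is the absolute log2 change divided by the square root of F. A group with 0 counts gives a bound with a floor of 3 counts over the group, and one with 1 to 3 counts a ratio with a 95% interval. The steps were tested on simulated data. No 2 replicates agreed within sampling noise.

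Values of every library are given for members called in at least 1 comparison with a mean of at least 5 CPM in 1 of its groups, up to 8 per comparison, and for Fn1, Ecm1, Col18a1, Timp1, Col1a1, Col3a1, Sparc, Acta2 and Pdgfrb; values of other members, Dcn, Thbs1 and Vcan among them, were added after they were seen. The members, lists and classes were chosen with earlier results of these data known. Alternatives were median-of-ratios scaling, no filter, a replicate block, DESeq2 1.42.0, only the compared groups in the fit, leaving out each library, and leaving out IL-6 replicate 3 with DDC STAT3KO replicate 3, or the libraries labelled T cell.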

Additional observations from a re-analysis of the deposited data

Results flagged for a closer look

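Timp1, Mmp14 and Fn1 were flagged because the effect of STAT3 deletion differed between the IL-6 and the DDC setting in a test of the difference itself (edgeR interaction term, adjusted over all genes). They were 3 of the 35 members tested, a share close to the 8.28% of all genes called in either direction. All 3 were lower, where 4.08% of all genes were. The log2 effect with IL-6 minus that with DDC was -6.88 for Timp1, -2.64 for Mmp14 and -1.96 for Fn1. Without IL-6 replicate 3 and DDC STAT3KO replicate 3 the Fn1 difference was -1.54 and did not pass (adjusted p = 0.0506). Stat3 itself changed by -1.77 in the IL-6 setting and by -0.94 in the DDC setting. It stood at 96.0 to 116 CPM in IL-6 STAT3KO and 56.3 to 87.3 CPM in DDC STAT3KO hepatocytes. In IL-6 hepatocytes it stood at 339.7 to 424 CPM, in DDC hepatocytes at 112 and 150.1 CPM. Fn1 was also higher in IL-6 (9432 to 11761 CPM) than in DDC hepatocytes (2320 and 2476 CPM). The same held for Mmp14 (144 to 155 against 50.96 and 90.6 CPM) and Timp1 (8.05 to 34.2 against 2.02 and 2.09 CPM). The part of these starting levels was not tested. The DDC hepatocytes had AAV-TBG-GFP and the IL-6 hepatocytes no virus named, so the setting and the kind of control cannot be told apart.

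The EGFP transgene, which belongs to no comparison, had 7795 counts in IL-6 hepatocyte replicate 3, against 117 and 93 counts in the other IL-6 libraries and 34 and 35 counts in the GFP hepatocytes. DDC hepatocytes, which received AAV-TBG-GFP, had 22357 and 27571 counts, and DDC STAT3KO hepatocytes 1, 0 and 0. In that IL-6 library Timp1 was lowest and Vcan and Col4a1 highest of the group, and Timp3 was at 3.31 CPM against 34.6 and 33.7 CPM. Whether the EGFP counts bear on these values was not tested.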

How the results depend on the processing

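The 26 called pairs of member and comparison kept their sign in all 289 alternative values, of which 56 no longer passed. The number of members called with IL-6 against GFP was 8 and ranged from 5 to 7 with 1 library left out. For IL-6 STAT3KO against IL-6 it was 5, with 3 to 6 when 1 library was left out. For IL-6 STAT3KO against GFP it was 1, with 0 to 2 when 1 library was left out, 2 with DESeq2 and 3 without IL-6 replicate 3 and DDC STAT3KO replicate 3. For DDC against GFP it was 10, with 4 to 5 when 1 library was left out, 22 with DESeq2, 25 with only the compared groups and 23 without the same libraries. The last 2 settings change which libraries set the spread. For DDC macrophages against macrophages on normal diet it was 0, with 4 without the filter, 3 with DESeq2, 3 with only the compared groups, 1 with the replicate block and 1 to 2 when 1 library was left out. Against the other DDC cells it was 2, with 5 without the filter, 4 with DESeq2, 4 with the replicate block, 5 without the libraries labelled T cell and 2 to 8 when 1 library was left out. Between Ly6C high and low monocytes it was 0, with 1 without the filter, 1 with DESeq2 and 0 to 1 when 1 library was left out. For DDC STAT3KO against DDC it was 0 in every alternative. The causes of the other moves were not tested.

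Same-numbered replicates of compared groups showed little shared deviation from their group means (correlations -0.187 to 0.133). Groups with so few libraries cannot decide by this whether the numbers pair the samples. With the replicate block the counts were 8 for IL-6 against GFP, 4 for IL-6 STAT3KO against IL-6, 1 for IL-6 STAT3KO against GFP, 14 for DDC against GFP and 0 for DDC STAT3KO against DDC. Of all genes called between macrophages on DDC and normal diet, 7 of 7 were higher with edgeR and 23.3% of 889 with DESeq2, and against the other DDC cells 157 of 193 with edgeR and 42.9% of 769 with DESeq2. Over all genes, DDC against GFP gave 2674 calls, against 4415 with only the compared groups, 4061 without IL-6 replicate 3 and DDC STAT3KO replicate 3, and 607 to 1220 with 1 library left out.

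Groups of 2 or 3 libraries limit every test. A level under about 1 CPM rests on few counts, as for Timp1 in GFP hepatocytes, and such genes are not ranked here. Immune replicates spread widely, with a biological coefficient of variation of 1.00 against 0.313 in hepatocytes.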
